A study of Homo sapiens with 11 samples.

Results

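The baseline transcriptome of the established human myeloma cell line ARP1 was read from its control libraries. These were 6 of the 11 RNA-seq libraries of a study that changed the level of PHF19, an accessory subunit of the Polycomb repressive complex that carries EZH2. They were chosen by their titles: 3 scramble libraries, replicates 1 to 3, which stand beside the PHF19 shRNA libraries, and 3 PCDH empty vector libraries, replicates 3 to 5, which stand beside PHF19 overexpression. The line is labelled as myeloma cells of the Ig A kappa type, grown in RPMI1640 with FBS and penicillin. Empty vector cells had been infected with a lentivirus packaged in HEK293T cells. The scramble libraries carry the same treatment text and a genotype entry that reads PHF19 overexpressed, which goes against their titles, so the title decided the group. All libraries come from this 1 line. PHF19 itself read 113, 152 and 123 in scramble replicates 1, 2 and 3, and it held percentile 94.6 in the scramble and 94.3 in the empty vector libraries among genes above 0 in all 6. The sources used here do not say whether replicates were separate cultures, and the spread between them may be technical.

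Plasma cells are the antibody-secreting end stage of B cells. Their identity rests on the transcription factors IRF4, PRDM1 (BLIMP1) and XBP1, which silence the B cell programme and enlarge the endoplasmic reticulum (ER), where antibody chains are folded and shipped to the Golgi. Myeloma is a cancer of plasma cells that keeps most of this machinery, often carries a chromosomal translocation that places an oncogene beside an immunoglobulin locus, and shows surface proteins such as SDC1 (CD138) and TNFRSF17 (BCMA) that are used for diagnosis and therapy.

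Values are abundances of FPKM type, which are scaled to gene length and library size, so levels of different genes within a library can be set side by side. Unless another group is named, 3 values in a row are scramble replicates 1, 2 and 3. Of the 14458 genes of the scramble table, 12951 were above 0 in all 3 scramble libraries and were ranked by their mean. A percentile is the share of these ranked genes at or below a gene's mean, and the top 10% starts at percentile 90. The empty vector libraries lie in a second table that was normalised on its own, so only ranks are set across tables. The listed abundances summed to 522889, 525567 and 469790 in the scramble libraries, and read depth is unknown. Log2 abundances of scramble libraries correlated at 0.988 to 0.993 (Pearson, across 12951 genes). The empty vector libraries correlated at 0.947 to 0.985 over 9316 genes, and both values that involve replicate 5 (0.947 and 0.955) were lower than the one that does not. The 20 most abundant scramble genes comprised 15 ribosomal protein genes (among them RPS2, RPS18, RPLP1, RPL41, RPS27, RPS16, RPS15, RPS10, RPL7A, RPS12, RPS3A, RPS14, RPL35 and RPL13A) and GAPDH, TMSB4X, ACTB, ACTG1 and EEF1A1. GAPDH, a glycolytic enzyme, led with 5236, 5184 and 4541. The 82 ribosomal protein genes took 23.9%, 22.4% and 18.5% of the summed abundance, least in replicate 3.

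A total of 484 genes in 21 lists were looked up. Of these, 387 were ranked, 29 had a 0 in at least 1 scramble library, and 68 are not among the genes of that table and were not analysed here. The top 10% holds 10% of ranked genes by construction. Of all ranked genes 43.2% had at least 10 in all 3 scramble libraries, 5.85% had at least 100 in all 3, and 14.9% were under 1 in all 3.

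All 5 markers that define the plasma cell here were in the top 10% of the ranked genes. XBP1, the factor that drives ER expansion, read 359.9, 525 and 475, a mean of 453 ± 84.6 (SD, n = 3) at percentile 98.9. IRF4, on which myeloma cells depend for survival, read 218, 129 and 167, a mean of 172 ± 44.7 (SD, n = 3) at percentile 96.4. PRDM1, the repressor that ends the B cell programme, read 62, 69.98 and 86.98, a mean of 72.99 ± 12.8 (SD, n = 3) at percentile 90.5. It left the top 10% at percentile 89.5 without scramble replicate 3, and at 88.2 where only genes with at least 1 in all 3 libraries were ranked. The 3 factors thus stood in the order XBP1, IRF4, PRDM1 in every scramble library, with no overlap between the ranges of their values. In the scramble libraries IRF4 was the most variable of them, with a coefficient of variation (CV, SD over mean) of 26.1%. Its highest value was in replicate 1, where XBP1 and PRDM1 had their lowest. In the empty vector libraries it was the least variable, with a CV of 12.3%, against 27.6% for PRDM1 and 26.1% for XBP1. SDC1, the heparan sulfate proteoglycan used to sort plasma cells, read 173, 255 and 252, a mean of 227 ± 46.5 (SD, n = 3) at percentile 97.5, lowest in replicate 1. TNFRSF17, the receptor for the survival factors BAFF and APRIL, read 88.6, 101 and 80.9, a mean of 90.3 ± 10.3 (SD, n = 3) at percentile 92.6. In the empty vector table XBP1 read 396, 495 and 664 in replicates 3, 4 and 5, IRF4 190.4, 238 and 196, PRDM1 81.5, 81.9 and 128 and SDC1 160.3, 233 and 291. Among genes above 0 in all 6 libraries these were at percentiles 99.01, 97.3, 93.1 and 97.5, against 98.9, 96.1, 89.6 and 97.3 in the scramble libraries. TNFRSF17 is listed at 0 in empty vector replicates 3 and 4 and at 105 in replicate 5. Genes that all cells use are also listed at 0 in single empty vector libraries, among them VCP and CANX, so no mean is given where an empty vector value is 0.

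Of 17 plasma cell transcription factors and cofactors, all were ranked, 4 lay in the top 10% and 13 had at least 10 in all 3 scramble libraries, with a median percentile of 75.9. The fourth in the top 10% was TCF3, which encodes the E2A factors that bind immunoglobulin enhancers, with 172, 189 and 210.4. The ranges of TCF3 and IRF4 overlapped, so their order is within the spread. ELL2, an elongation factor that directs immunoglobulin messages to their secreted form, read 62.2, 64.8 and 73.2 and overlapped with PRDM1. MEF2C, which acts in B cell responses, read 45.4, 54.1 and 60.4. EAF2, a partner of ELL2, read 34.6, 45.6 and 29.3, and TCF4, a second E protein, read 27.03, 33.4 and 37.8. BHLHA15 (MIST1), a factor of secretory cells, read 19.8, 31.2 and 31.3, lowest in replicate 1. MEF2C, EAF2, TCF4 and BHLHA15 formed a run in which each overlapped with its neighbour. The lymphoid factors below them were close together. POU2AF1, the B cell coactivator of octamer promoters, had a mean of 15.3 ± 2.57 (SD, n = 3), IKZF3 (Aiolos) 12.4 ± 1.40 (SD, n = 3) and IKZF1 (Ikaros) 11.7 ± 2.18 (SD, n = 3), and neighbours in this order overlapped. The octamer-binding factors were lower, at 2.41, 2.25 and 3.06 for POU2F1 and 2.25, 2.39 and 2.99 for POU2F2. ZBTB20, a factor of long-lived plasma cells, was the lowest of the list with 0.1, 0.11 and 0.18.

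The B cell programme that precedes the plasma cell was mostly low. In bulk RNA, fewer cells with a transcript and less of it per cell cannot be told apart. Of 34 genes, 21 were ranked, with a median percentile of 26.0, 1 lay in the top 10%, 4 had at least 10 in all 3 scramble libraries and 7 were under 1 in all 3. PAX5, the factor that holds B cell identity, read 2.66, 1.76 and 2.6. BACH2, which restrains PRDM1 in B cells, read 2.98, 3.38 and 4.12. BCL6, the germinal centre repressor, read 0.5, 0.55 and 0.71. The PRDM1 value was 32.2 ± 8.30 times that of PAX5, 20.9 ± 0.212 times that of BACH2 and 125 ± 2.42 times that of BCL6 (mean ± SD of the per-library ratios, n = 3). MS4A1, which encodes CD20, was listed at 0 in all 3 scramble libraries, and EBF1, an early B cell factor, at 0, 0 and 0.04. CD22, CD79B, CD40 and SPI1 were not analysed here. Signal chain components were low as well: BLNK read 0.31, 1 and 0.45, BTK 0.14, 0.87 and 0.61 and BLK 0.07, 0.11 and 0.53. BANK1 read 0.32, 0.77 and 0.51, FCRLA 0.25, 0.17 and 0.19, FCER2 (CD23) 0.2, 0.12 and 0.71 and CR2 (CD21) 0.1, 0.05 and 0.05. From PAX5 down to FCRLA each gene overlapped with its neighbour, so the order of neighbours is within the spread. Genes further apart in this run can differ, as every PAX5 value was above every BCL6 value. CD37, CD72, CD24, STAP1 and SYK had a 0 in at least 1 scramble library.

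A few genes of the B cell list were abundant. ID3, an inhibitor of E proteins such as TCF3 and TCF4, read 162, 87.3 and 76.97, a mean of 109 ± 46.6 (SD, n = 3) at percentile 93.9. Its value in replicate 1 stood apart from the other two, and in the empty vector libraries it also spread widely, at 135, 74.2 and 46.8. ETS1 read 34.6, 26.02 and 31.8, MYB 14.2, 14.3 and 16.8 and CD79A, a chain of the B cell receptor, 13, 14.2 and 12.03. CIITA, the master coactivator of MHC class II genes that PRDM1 is known to repress, read 7.76, 6.77 and 9.44, and MYBL1 6.02, 8.19 and 9.8. CD83, S1PR2 and SPIB had means of 4.83, 3.13 and 3.01, and VPREB3 and BCL11A of 1.1 and 0.77. The plot of lineage regulators by library shows these levels on 1 scale.

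**Figure D1:**
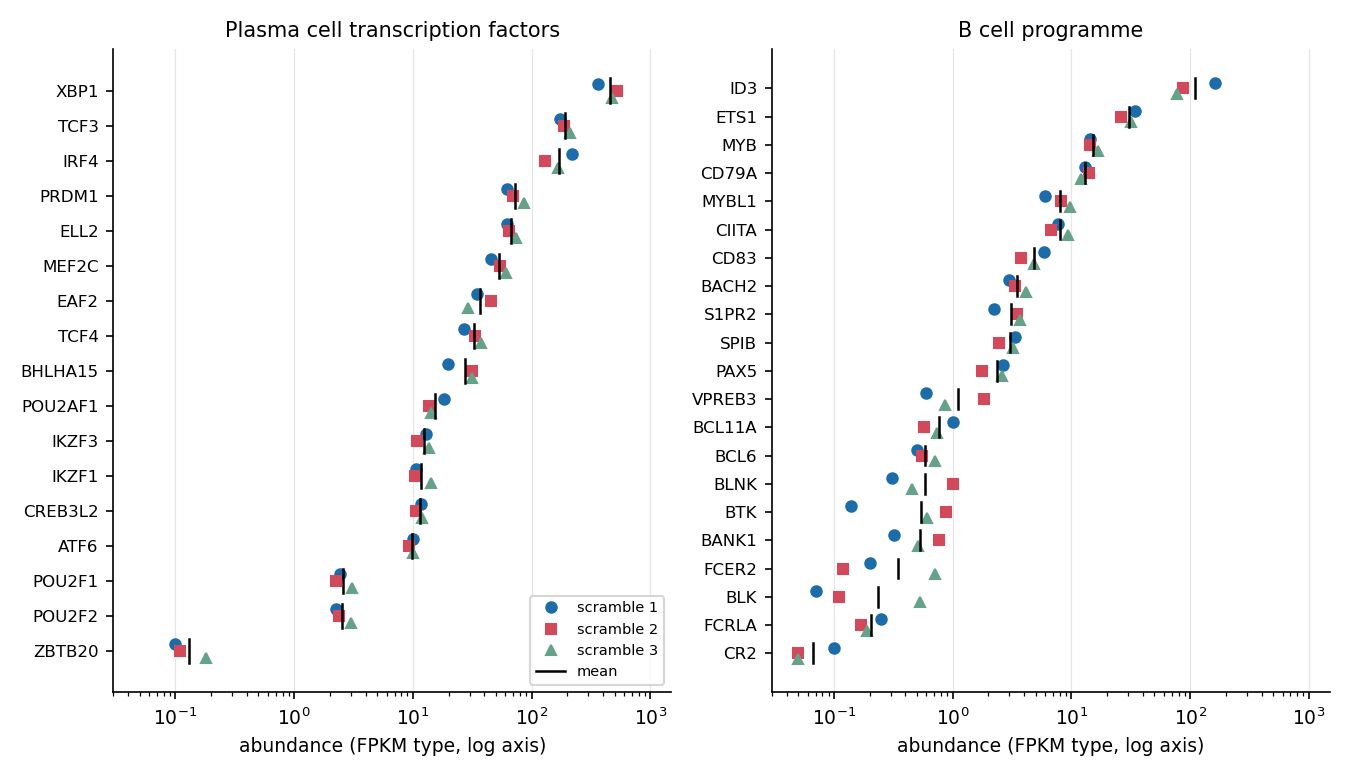
Abundance (FPKM type, log axis) of the ranked plasma cell transcription factors (left) and B cell programme genes (right) in ARP1 scramble libraries. Each symbol is 1 library and each black line the mean of the 3. XBP1, TCF3, IRF4 and PRDM1 lie at means of 73.0 or more, while PAX5 and BCL6 lie at 2.34 and 0.587.

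Of 29 surface proteins of plasma cells and myeloma, 28 were ranked, 6 lay in the top 10% and 14 had at least 10 in all 3 scramble libraries. The most abundant was ITGB7, the integrin beta chain that pairs with ITGA4 or ITGAE for homing and adhesion, with 621, 809 and 844, a mean of 758 ± 120.3 (SD, n = 3) at rank 102 of all genes. BST2 (tetherin, CD317), an antigen found on terminally differentiated B cells, read 238, 299 and 230.4. SLC3A2, the heavy chain of CD98 amino acid transporters, read 171, 193 and 186, and BST2, SDC1 and SLC3A2 overlapped as neighbours. CD48, a SLAM family ligand, read 41.5, 71.9 and 63.1, lowest in replicate 1. CD28, a costimulatory receptor that myeloma plasma cells can carry, read 16.4, 23.4 and 25.5. The antigens aimed at by antibodies and engineered T cells spanned a wide range. SLAMF7 read 12.3, 13.6 and 12.2, GPRC5D 7.46, 11.6 and 15.2 and CD38, an ectoenzyme that digests NAD, 4.27, 7.94 and 8.43. TNFRSF17 was above all 3 in every scramble library, at 7.10 ± 0.410 times SLAMF7 (mean ± SD of per-library ratios, n = 3). SLAMF7 overlapped with GPRC5D, and the values of CD38 overlapped with those of GPRC5D although not with those of SLAMF7. FCRL5 was low at 0.21, 0.16 and 0.32, and so were CD27, a receptor of memory B cells and normal plasma cells, at 0.16, 0.08 and 0.24, its ligand CD70 at 0.24, 0.48 and 0.25 and ROR1 at 0.75, 0.59 and 1.27. NCAM1 (CD56), an adhesion molecule gained by many myelomas, read 6.13, 2.51 and 3.08, highest in replicate 1. TNFRSF13B (TACI), the sister receptor of TNFRSF17, had a mean of 3.75 ± 0.631 (SD, n = 3), and the BAFF receptor TNFRSF13C of 2.90 ± 1.01 (SD, n = 3). KIT was not analysed here.

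Antibody genes could be described only in part. Of 20 immunoglobulin-related genes, 3 were ranked, all in the top 10% and at 100 or more in every scramble library. IGLL5, which lies in the lambda light chain locus and shares sequence with a lambda constant segment, read 1151, 1385 and 1110.4, a mean of 1215 ± 148 (SD, n = 3) at rank 63. JCHAIN, the joining chain of polymeric IgA and IgM, read 617, 668 and 517, a mean of 601 ± 76.7 (SD, n = 3). MZB1, an ER cochaperone that assists immunoglobulin assembly, read 322, 266 and 217, a mean of 268 ± 52.6 (SD, n = 3). Neighbours in the order IGLL5, JCHAIN, MZB1 did not overlap. IGLL5 was 2.03 ± 0.146 times JCHAIN in the scramble libraries (mean ± SD of per-library ratios, n = 3), whereas in the empty vector libraries IGLL5 read 1159, 1206 and 940.5 and JCHAIN 1686, 1939 and 1700.1, so that JCHAIN was the higher in all 3. Among the shared genes IGLL5 was at percentiles 99.5 and 99.4 in the scramble and empty vector libraries and JCHAIN at 99.05 and 99.7. The line is labelled kappa, and reads of IGLL5 and of rearranged lambda chains cannot be told apart in these values. MZB1 is listed at 0 in empty vector replicates 3 and 4 and at 422 in replicate 5. IGHA1, IGHA2, IGKC, the other heavy chain constant genes, IGLC1, IGLC2, IGLC3, IGLC7 and IGLL1 were not analysed here. FCAMR read 0, 0.16 and 0.11 and PIGR 0.07, 0.09 and 0.

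The secretory pathway was abundant. Its 4 lists hold 133 distinct genes, all ranked, of which 59 lay in the top 10%, 115 had at least 10 and 41 had at least 100 in all 3 scramble libraries. The ER folding list reached the highest median percentile of the 4: of its 35 genes, 22 were in the top 10%, 29 had at least 10, and the median percentile was 93.8. The 34 genes of entry into the ER followed with 20 in the top 10% and a median percentile of 93.2. The 36 genes of ER to Golgi traffic had 10 in the top 10% and a median of 83.4, and the 28 genes of the unfolded protein response (UPR) and ER-associated degradation (ERAD) had 7 and 75.2.

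**Figure D2:**
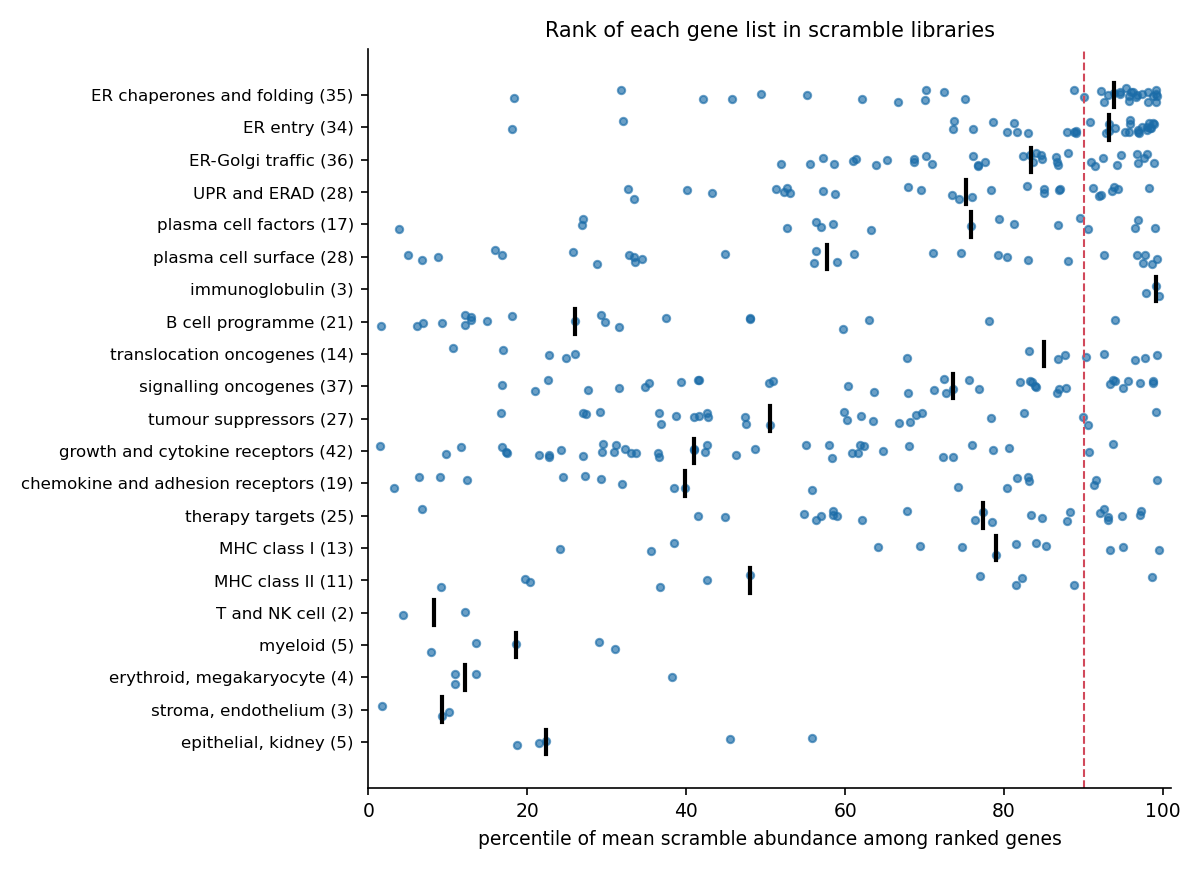
Percentile of each ranked list member's mean scramble abundance among 12951 ranked genes, with 1 point per gene, the median of each list as a black line, and the number ranked in brackets. The dashed line marks percentile 90, above which 22 of 35 ER folding genes and 20 of 34 ER entry genes lie, against 1 of 21 B cell programme genes.

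Within the ER folding list, the disulfide isomerase TXNDC5 (also called ERp46) had the highest mean. It read 767, 756 and 751, with a CV of 1.10%, and PDIA6, of the same family, read 678, 655 and 657. CALR (calreticulin), the lectin chaperone of newly made glycoproteins, read 734, 624 and 606, and PPIB (cyclophilin B), a proline isomerase, 639.8, 653 and 520.5. PDIA6, CALR and PPIB overlapped as neighbours, while all 3 TXNDC5 values were above those of CALR and PDIA6. P4HB, the founding disulfide isomerase, read 375, 418 and 439. HSP90B1 (GRP94), the ER form of HSP90, read 269.5, 302 and 300.02, and SDF2L1, a cofactor of HSPA5 cycles, 278, 315 and 267. HSPA5 (BiP), the ER form of HSP70 that binds free heavy chains, read 194, 177 and 187, and HSP90B1 was 1.57 ± 0.164 times as high (mean ± SD of per-library ratios, n = 3). DNAJC1 read 167, 251 and 237 and overlapped with HSPA5. The list ended with ERO1LB, an oxidase typical of endocrine cells, at 0.99, 0.85 and 1.57, against 15.1, 18.1 and 20.2 for its relative ERO1L, and with FKBP14 at 3.54, 3.52 and 3.56, CNPY4 at 7.71, 5.58 and 5.02 and DNAJB9 at 5.49, 8.31 and 7.89. The median CV of the list was 8.64%.

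The promoters of ER folding genes are known for the ER stress response element, which is bound by ATF6 together with NF-Y, and those of other secretory genes for the unfolded protein response element, which is bound by XBP1 and ATF6. Both were searched in RefSeq promoter windows (GRCh38.p14, 250 bases before to 50 bases after each gene start) after the levels had been seen. The first was taken as CCAAT, 9 free bases and CCACG, the second as TGACGTGG, each on both strands. The reverse complement of the second begins with CCACG, so that matches of both motifs can share these 5 letters. The first occurred in 25 of 27305 genes with a window (0.0916%) and in 17 of 10064 ranked genes (0.169%). In the ER folding list it occurred in 7 of 32 genes with a window (21.9%): CALR, CANX, CRELD2, ERO1LB, HSP90B1, HSPA5 and PDIA6. Among all other lists it occurred in 1 gene, XBP1. Sites of 5 of these genes, all in the top 10%, and of XBP1 are shown because the motif marks a share of this list that few other genes have, with the fixed letters of the motif in capitals, read 5′ to 3′ on the strand that carries it, and 8 bases on either side.
HSPA5 (chr9:125241391-125241409, minus strand): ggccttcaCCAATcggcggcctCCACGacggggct
PDIA6 (chr2:10812853-10812871, minus strand): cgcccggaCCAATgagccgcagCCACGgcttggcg
CALR (chr19:12938384-12938402, minus strand): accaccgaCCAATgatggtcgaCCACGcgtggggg
HSP90B1 (chr12:103930216-103930234, plus strand): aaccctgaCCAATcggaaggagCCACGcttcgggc
HSP90B1 (chr12:103930321-103930339, minus strand): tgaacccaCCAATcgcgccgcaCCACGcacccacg
CRELD2 (chr22:49918554-49918572, minus strand): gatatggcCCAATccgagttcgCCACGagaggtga
XBP1 (chr22:28800603-28800621, minus strand): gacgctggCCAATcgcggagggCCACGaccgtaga

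These sites lie upstream of the gene start, with the far end of the match 66 bases away in HSPA5, 86 in PDIA6, 225 in CALR, 194 and 89 in HSP90B1, 80 in CRELD2 and 52 in XBP1. The motif has the gene's own orientation in HSPA5, PDIA6, XBP1 and the farther HSP90B1 site, and the opposite one in CALR, CRELD2 and the nearer HSP90B1 site. A match describes the letters of the window and is not a measure of binding. Holding the motif did not go with a high level in every case, since ERO1LB has it at a mean of 1.14 ± 0.382 (SD, n = 3), while TXNDC5, PPIB and P4HB do not have it in their windows.

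The second motif was spread over other secretory lists. It occurred in 253 of 27305 genes (0.927%) and 124 of 10064 ranked genes (1.23%). In the ER to Golgi list it occurred in 9 of 32 genes with a window (28.1%), which were ARF1, COPA, COPB1, COPB2, KDELR3, SEC16A, SEC23A, SEC24A and STX5. It occurred in 4 of 28 ER entry genes (14.3%: SEC62, SRP19, SSR3 and SSR4), in 4 of 32 ER folding genes (12.5%: DNAJC10, HYOU1, TXNDC11 and TXNDC5) and in 2 of 25 UPR and ERAD genes (8%: UBE2J1 and VCP). No gene of these 4 lists carried both motifs in its windows. Sites of the most abundant holder in 3 of the lists are shown in the same way.
TXNDC5 (chr6:7910162-7910169, minus strand): ctggcggcTGACGTGGcgctcggc
SSR4 (chrX:153794539-153794546, minus strand): ggcagcacTGACGTGGcccctccc
VCP (chr9:35072807-35072814, minus strand): cggccaatTGACGTGGcgttacta

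The genes that carry nascent chains into the ER were nearly as abundant as the chaperones. SSR2, a subunit of the translocon-associated protein complex, read 407, 476 and 399, and its partner SSR4 312, 397 and 326. SRP14, a subunit of the signal recognition particle, read 462, 422 and 311. Of the translocation channel, the small subunit SEC61B read 366, 329.8 and 257, the small subunit SEC61G 356, 289 and 175 and the pore subunit SEC61A1 199, 189 and 207. Its paralog SEC61A2 read 3.5, 3.46 and 3.81, so that SEC61A1 was 55.3 ± 1.41 times as high (mean ± SD of per-library ratios, n = 3). Of the oligosaccharyltransferase that attaches N-glycans, OST4 read 356, 315 and 226, DAD1 293, 322 and 235 and RPN1 215, 224 and 218. TUSC3, an alternative oligosaccharyltransferase subunit, was lowest with 0.99, 1.09 and 1.25, below SEC61A2 in every library. SEC63 read 22.4, 24.02 and 26.8 and SEC62 21.4, 26.4 and 25.6. SEC61G and the signal peptidase subunit SEC11C (236, 196 and 132) had CVs of 33.4% and 28.02% and were highest in replicate 1 and lowest in replicate 3, as was the ribosomal protein share of these libraries. The part of that share in these 2 values was not tested.

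ER to Golgi transport had a flatter profile. ARF1, the GTPase that recruits the COPI coat, read 429, 456 and 449, and COPE, a COPI subunit, 253, 326 and 260.2. Of the p24 cargo receptors, TMED9 read 209.5, 260.1 and 231 and TMED2 97.5, 141 and 129.96. KDELR1, which returns escaped ER chaperones, read 181, 189 and 199.5, and was 4.17 ± 0.133 times as high as KDELR2 (mean ± SD of per-library ratios, n = 3). LMAN2, a lectin for glycoproteins, read 164, 210.4 and 188, PREB (SEC12), which starts COPII coats, 105, 119 and 116, and COPZ1 87.8, 95.8 and 81.5. Of the 36 genes, 34 had at least 10 in all 3 scramble libraries, and the low end still read 7.74, 10.1 and 10.5 for SAR1B, 8.57, 10.9 and 13.6 for GOLGB1, 10.4, 13.3 and 11.5 for KDELR3 and 12.1, 13.5 and 11.8 for BET1. In this list 30 of 35 neighbouring pairs overlapped, so the order of most neighbours, although not of the list as a whole, is within the spread.

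Of the UPR and ERAD genes, ATF4, the factor made when PERK phosphorylates eIF2, had the highest mean and read 325, 309 and 276. Of the proteins that help to extract misfolded chains from the ER, AUP1 read 114, 119.9 and 115, VCP 114, 102 and 109 and VIMP 103, 110.2 and 95.6. OS9, a lectin that picks ERAD clients, read 86.5, 87.7 and 85.4, HERPUD1, a scaffold of the ERAD ligase, 63.2, 96.4 and 93.1. The VCP cofactor UFD1L read 89.01, 80.5 and 68.1 and its partner NPLOC4 54.01, 48.9 and 60.3. The 3 stress sensors of the ER were below every one of these. ATF6 read 10.1, 9.23 and 10.03, EIF2AK3 (PERK) 5.51, 6.28 and 7.42 and ERN1 (IRE1), the kinase that splices the XBP1 message, 3.57, 4.98 and 8.02. DDIT3 (CHOP), a factor of terminal ER stress, read 8.48, 11.2 and 8.08 in the scramble libraries and 0, 0 and 69.9 in empty vector replicates 3, 4 and 5. ATF6B read 4.53, 3.73 and 3.33 and MBTPS2, a protease that activates ATF6, 3.47, 3.33 and 4.32.

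Among 16 genes that translocations rearrange in myeloma or other lymphoid tumours, 14 were ranked, 5 lay in the top 10% and 9 had at least 10 in all 3 scramble libraries. TXNDC5, IRF4 and TNFRSF17 of this list are described above. MYC, a transcription factor of growth and a frequent target of secondary rearrangements, read 262, 233 and 248, a mean of 247 ± 14.5 (SD, n = 3) at percentile 97.7. MAF, the bZIP oncogene of the translocation between chromosomes 14 and 16, read 65.3, 78.4 and 72.3, a mean of 72.01 ± 6.57 (SD, n = 3) at percentile 90.4. MYC was above MAF in every library, and their ranges did not overlap. The ranked genes of the list not yet named were lower than MYC and MAF by their means. The D cyclin CCND2 read 54.8, 54.03 and 62.1 and CCND3 52.7, 52.2 and 54.98. Their ranges overlapped, although CCND2 was slightly the higher in every library. CCND1 read 1.68, 2.22 and 2.49. NSD2, the histone H3K36 methyltransferase beside FGFR3, read 40.5, 36.8 and 47.8, whereas FGFR3 read 1.83, 1.85 and 1.65. BCL2 read 17.99, 16.2 and 21.9. MYCN read 1.17, 1.2 and 0.58, MYCL 0.39, 0.32 and 0.57 and MAFA 0.04, 0 and 0. As background, CCND2, ITGB7 and CCR1 have been described as raised in myelomas with MAF rearrangement. Here CCND2 was at percentile 87.7, ITGB7 at 99.2 and CCR1, with 37.05, 43.2 and 44.7, at 83.1. Whether MAF is rearranged in this line was not tested, and abundances alone do not show it.

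Of the 9 translocation list genes above 0 in all 6 control libraries, 0 differed by at least 20 percentile points between the tables. MAF read 27.6, 34.6 and 85.3 in the empty vector libraries, with replicate 5 high, and was at percentile 84.7 against 89.4 among shared genes. MYC read 182, 198 and 182, at percentile 96.9 against 97.6. CCND2 read 47.9 and 53.4 in replicates 3 and 4 and is listed at 0 in replicate 5, and NSD2 is listed at 0 in all 3.

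**Figure D3:**
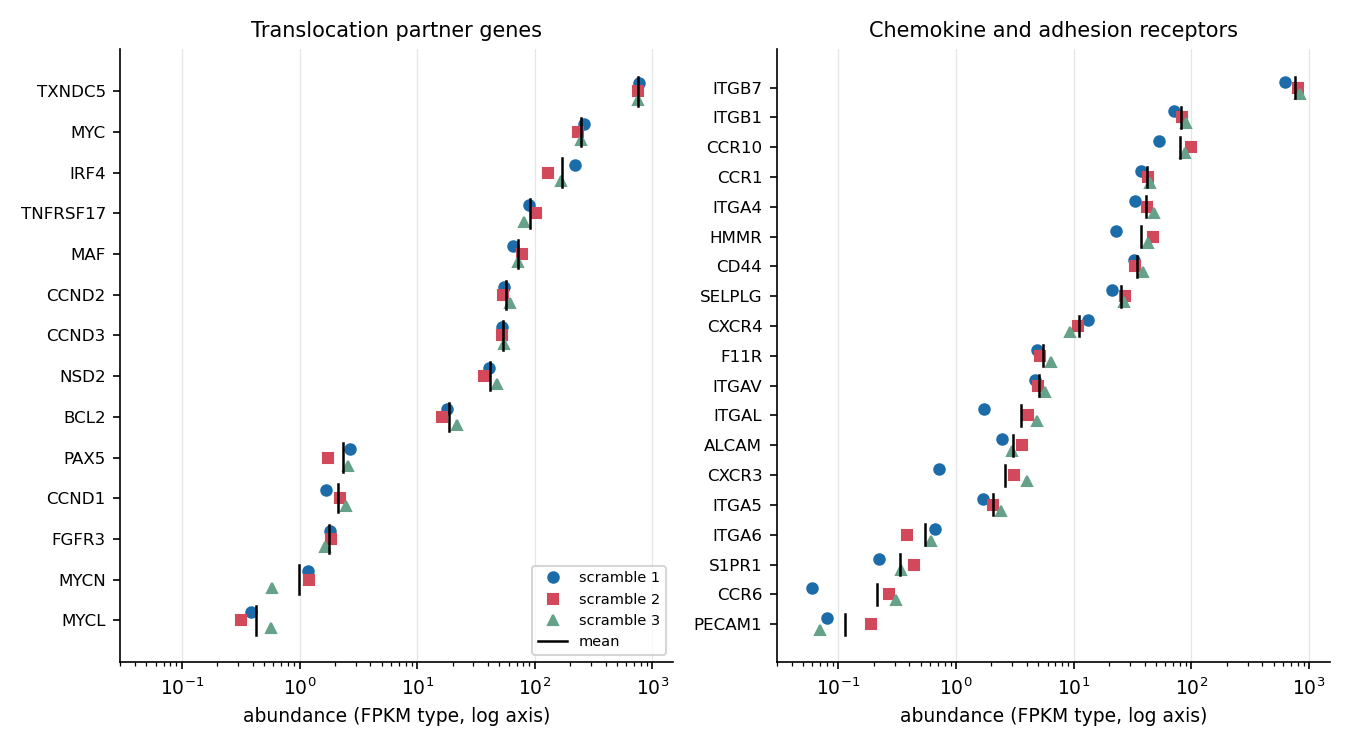
Abundance (FPKM type, log axis) of the ranked translocation partner genes (left) and of chemokine and adhesion receptors (right) in ARP1 scramble libraries, with 1 symbol per library and a black line at the mean of the 3. MYC and MAF lie at 247 and 72.0 and CCND2 and CCND3 overlap, while ITGB7 lies at 758, above all other receptors shown.

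The 37 genes of growth and survival signalling were all ranked, with 8 in the top 10%, 25 at 10 or more in all 3 scramble libraries and a median percentile of 73.5. CKS1B, the cyclin kinase cofactor in the chromosome 1q region often gained in myeloma, read 362, 465 and 394. PIM2, a survival kinase abundant in plasma cells, read 358, 421 and 420.5 and overlapped with CKS1B, and PIM2 was 17.3 ± 1.02 times its paralog PIM1. MCL1, the BCL2 relative on which plasma cells depend, read 178, 209 and 226, at 11.04 ± 1.58 times BCL2 and 19.3 ± 3.54 times BCL2L1 (mean ± SD of per-library ratios, n = 3). ANP32E, another 1q gene, read 82.1, 119.6 and 113, and PIM3 85.3, 111 and 103. In the RAS pathway, the kinase MAP2K2 read 106, 113 and 109. HRAS read 56.4, 54.9 and 51.2 and NRAS 27.1, 42.99 and 44.2, and HRAS exceeded NRAS in every library. BRAF read 3.65, 4.2 and 4.62. EZH2, the catalytic partner in the complex with PHF19, read 55.1, 56.9 and 61.1, and all 3 of its values were below those of PHF19. JAK2 read 1.73, 3.2 and 3.09, PIK3CD 1.66, 1.6 and 2.02, SRC 1.17, 1.59 and 1.81 and DKK1, the secreted WNT antagonist linked to bone lesions, 0.38, 1.59 and 0.91, which were among the lowest of the list. In this list 32 of 36 neighbouring pairs overlapped.

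Of 30 tumour suppressors and NF-kB brakes, 27 were ranked, 2 lay in the top 10% and 12 had at least 10 in all 3 scramble libraries, with a median percentile of 50.5. CDKN2A stood above the rest with 579, 768 and 626, a mean of 658 ± 98.7 (SD, n = 3) at percentile 99.2. It encodes the CDK4/6 inhibitor p16 and, in another frame, ARF, which cannot be separated in a value per gene. Its neighbour CDKN2B read 19.7, 20.02 and 21.9, and CDKN2A was 32.1 ± 5.43 times as high (mean ± SD of per-library ratios, n = 3). In the empty vector libraries CDKN2A read 369.6, 394 and 358, at percentile 98.6. CDKN1B (p27), which CKS1B helps to degrade, read 50.9, 79.1 and 75.8, and RB1, the target that CDK4/6 inactivates, 11.6, 16.1 and 18.5. CDKN1A (p21) read 3.89, 1.45 and 2.56. ARID1A read 40.5, 32.7 and 46.3, TRAF2 32.6, 31.01 and 29.96 and MAX, the partner of MYC, 19.4, 19.2 and 18.7. DIS3, an exosome nuclease, read 14.9, 19.02 and 20.01, and TENT5C, a poly(A) polymerase, 9.15, 14.5 and 15.8, and both are recurrently mutated in myeloma. TRAF3 and CYLD, whose loss turns on NF-kB in myeloma, had means of 7.82 ± 0.587 (SD, n = 3) and 5.77 ± 1.34 (SD, n = 3). BIRC3 read 2.8, 3.04 and 3.14, TET2 1.94, 2.53 and 3.22 and ZFHX3 0.99, 0.65 and 1.21, the low end of the list. CDKN2C and FAF1 were not analysed here.

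Growth factor and cytokine receptors were mostly in the lower part of the ranking. Of 51 genes, 42 were ranked, 2 lay in the top 10% and 14 had at least 10 in all 3 scramble libraries, with a median percentile of 41.0. IL2RG, the common gamma chain of several interleukin receptors, led with 98.05, 109 and 106, a mean of 104 ± 5.67 (SD, n = 3) at percentile 93.7. TFRC, the transferrin receptor that brings iron into growing cells, read 86.7, 65.5 and 70.8. Neither overlapped with the next genes, IFNAR2 at 28.03, 37.7 and 39.4 and TNFRSF1B at 31.1, 30.9 and 32.3. Partners of the gamma chain were read at lower levels, with 22.1, 23.4 and 23.8 for IL15RA, 14.5, 18.7 and 23.7 for IL2RB and 6.83, 7.33 and 7.91 for IL21R. IL27RA read 25.5, 26.8 and 30.2 and NOTCH2 22.1, 20.3 and 30.6. For interleukin 6, a growth factor of myeloma cells, the shared signal chain IL6ST (gp130) read 7.15, 12.2 and 13.2 and the specific chain IL6R 1.43, 2.06 and 2.58, so IL6ST was 5.33 ± 0.491 times as high (mean ± SD of per-library ratios, n = 3). IGF1R, the receptor of another myeloma growth factor, read 3.48, 3.64 and 4.3, and INSR 2.43, 3.19 and 3.63. Their ranges overlapped, although IGF1R was the higher in every library. TNFRSF1A read 11.7, 16.8 and 20.5, lowest in replicate 1. The death receptor FAS read 0.68, 1.23 and 1.12, while TNFRSF10A, a receptor for TRAIL, read 9.29, 12.8 and 15.1. ACVR2A, CSF2RB, ERBB2 and OSMR closed the list with means of 0.963, 0.503, 0.37 and 0.0633. ERBB3, LIFR and IL7R had a 0 in at least 1 scramble library, and KDR, FLT1, FGFR2, EGFR, IL2RA and LTBR were not analysed here.

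Of 28 chemokine and adhesion receptors, 19 were ranked, with 3 in the top 10% (ITGB7, ITGB1 and CCR10) and 8 at 10 or more in all 3 scramble libraries. ITGB1 read 71.7, 83.5 and 89.8 and ITGA4 32.9, 42.2 and 48.2, and ITGB7 was 9.25 ± 0.533 times ITGB1 and 18.5 ± 0.874 times ITGA4 (mean ± SD of per-library ratios, n = 3). CCR10, the homing receptor of IgA plasma cells at mucosal surfaces, read 52.96, 98.9 and 88.7, a mean of 80.2 ± 24.1 (SD, n = 3), lowest in replicate 1. CXCR4, the marrow homing receptor, read 13.2, 10.8 and 9.39, highest in replicate 1. Every CCR10 value was above every CXCR4 value, although their ratio varied from 4.02 in replicate 1 to 9.13 and 9.44 in the others. HMMR, a hyaluronan-binding mitotic protein, read 22.8, 47.1 and 42.7, CD44 32.3, 32.9 and 38.7 and SELPLG, a selectin ligand, 21.2, 27.2 and 26.8. CXCR3 read 0.72, 3.13 and 3.99 and the beta 2 integrin partner ITGAL 1.73, 4.09 and 4.89, both lowest in replicate 1. ITGA6, S1PR1, CCR6 and PECAM1 were low, with means of 0.55, 0.333, 0.213 and 0.113. Among the others, ITGB2, ITGB3, CCR2 and CCR7 had a 0 in at least 1 scramble library, and CXCR5, ACKR3 and CX3CR1 were not analysed here.

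Of the 21 lists, MHC class II had the highest median CV among the scramble libraries, 55.5%. MHC class II proteins display peptides from outside the cell to helper T cells, and PRDM1 is known to silence them in plasma cells by way of CIITA. Of 13 class II genes, 11 were ranked, and 10 of these 11 were highest in scramble replicate 1, against 25.3% of all ranked genes. CD74, the invariant chain, read 588, 256 and 259, a mean of 368 ± 191 (SD, n = 3) at percentile 98.6. HLA-DRA read 72.9, 23.2 and 15.2, HLA-DPA1 102, 46.2 and 38.8 and HLA-DRB1 60.9, 30.03 and 26.7. HLA-DMA, which edits the bound peptides, read 43.2, 22.6 and 21.8. For these 5 genes replicate 1 was above both other libraries, which lay nearer to each other than to replicate 1. All 5 class II genes with a mean of at least 10 had a CV of at least 25%, against 6.1% of all ranked genes at that level. HLA-DMB read 10.7, 4.58 and 3.53, HLA-DRB5 10.1, 2.27 and 1.55, HLA-DOB 1.99, 0.89 and 1.38, HLA-DOA 2.53, 0.41 and 1.07 and HLA-DPB1 0.71, 0.07 and 0.24. CIITA was the exception, with its highest value of 9.44 in replicate 3. HLA-DQA1 was 0.26, 0 and 0 and HLA-DQB1 was not analysed here. Class II abundance summed to 901, 393 and 379 over the genes of the list.

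The summed markers of T and NK cells and of myeloid cells were lowest in replicate 1. T and NK cell markers summed to 0.33, 1.68 and 0.88 and myeloid markers to 7.80, 9.10 and 8.52 in scramble replicates 1, 2 and 3. These sums rest on low values, with 2 of 15 T and NK cell genes and 5 of 12 myeloid genes ranked. B cell programme genes summed to 259, 179 and 181, highest in replicate 1, where 8 of the 21 ranked ones had their highest value. ID3, an inhibitor of E proteins, gave most of that difference with 162, 87.3 and 76.97. The part of other cells or of a library effect in the class II values was not tested. CD74 in the empty vector libraries read 397, 392 and 552, highest in replicate 5.

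MHC class I genes, which show internal peptides, did not share this pattern, with 6 of 13 ranked genes highest in replicate 1. B2M, the light chain of all class I molecules, read 1255, 1452 and 1045, a mean of 1251 ± 203 (SD, n = 3) at percentile 99.5. PSMB8, an immunoproteasome subunit, read 114, 146 and 127. Of the heavy chains, values were 98.1, 103 and 95.3 for HLA-E, 28.1, 27.4 and 21.6 for HLA-C, 23.03, 21.02 and 16.9 for HLA-F and 18.01, 15.02 and 14.3 for HLA-B. Heavy chain genes, and the HLA-DRB genes of class II, are alike in sequence and differ between people, so their values and order are uncertain. The peptide transporter subunit TAP1 read 36.5, 37.9 and 36.5, TAP2 46.8, 46.98 and 48.6 and the peptide trimmer ERAP1 26.98, 32.1 and 37.2. TAPBP (tapasin), which loads peptides, was lower with 2.69, 1.92 and 1.35, and NLRC5, the class I coactivator, read 3.18, 4.9 and 4.99. PSMB9, a second immunoproteasome subunit, read 13.8, 0.52 and 1.11 and had the highest CV of the 13 ranked class I genes, 146%. HLA-G read 0, 0.13 and 0.

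**Figure D4:**
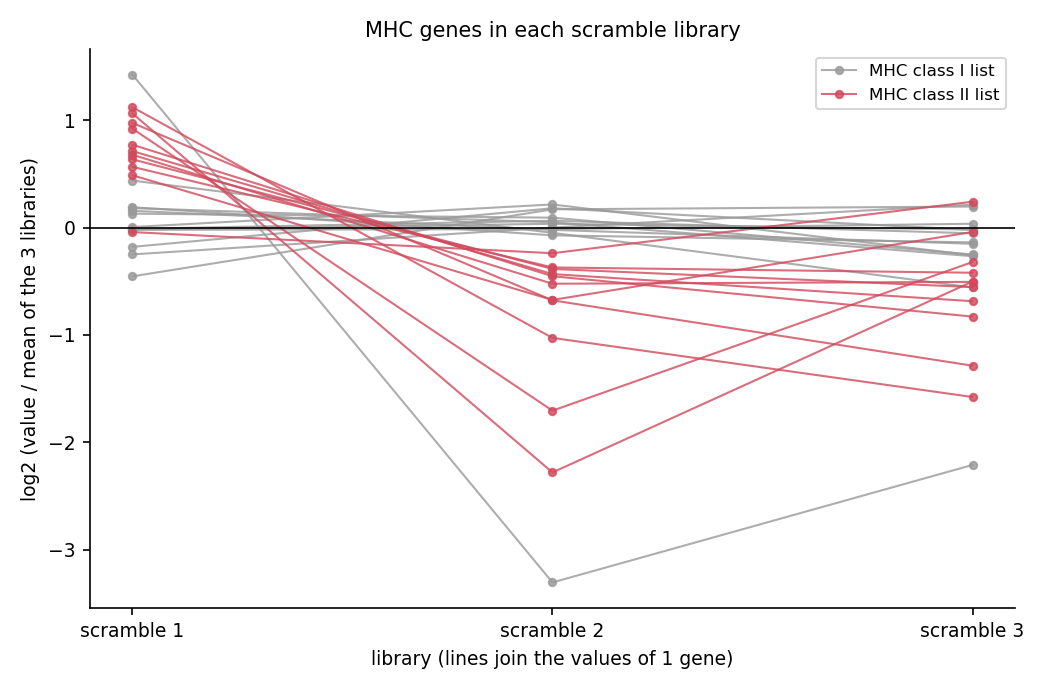
Log2 ratio of each MHC gene's value to its mean over the 3 ARP1 scramble libraries, with class II list genes in red and class I list genes in grey, 1 line per ranked gene. In replicate 1, 10 of 11 class II genes and 6 of 13 class I genes are at their highest. The top grey line there is PSMB9.

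Genes that drugs in myeloma act on were widely expressed. Of 25, all were ranked, 7 lay in the top 10% and 20 had at least 10 in all 3 scramble libraries, with a median percentile of 77.3. PSMB5, the proteasome subunit that bortezomib blocks, read 108, 96.3 and 86.6, PSMB1 216, 246 and 184 and PSMB2 63.7, 58.5 and 56.5. CRBN (cereblon), the receptor of lenalidomide, read 10.9, 13.6 and 12.8 and overlapped with its drug-induced substrates IKZF1 and IKZF3. DDB1 and CUL4A, which form the ligase with CRBN, were higher, at 127, 118 and 132 for DDB1 and 40.6, 41.3 and 45.7 for CUL4A. XPO1, the nuclear exporter that selinexor blocks, read 80.2, 82.3 and 94.5, and NR3C1, the glucocorticoid receptor, 12.4, 14.7 and 16.4. HDAC1 read 97.7, 92.9 and 97.2 and HDAC6 4.78, 5.55 and 7.41. BCL2L1 read 11.8, 9.8 and 10.6, below BCL2 in every library.

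Markers of other cell types that a culture could hold were mostly low, with KRT18 at percentile 55.8 and CGN at 45.5 the highest. Of 15 T and NK cell genes 2 were ranked, CD3E with 0.2, 0.86 and 0.55 and CD8A with 0.1, 0.13 and 0.19. Of 12 myeloid genes 5 were ranked: CD68 read 3.13, 3.83 and 3.22, CD33 3.16, 3.13 and 2.59, LYZ 0.9, 0.94 and 1.71, CD14 0.37, 0.79 and 0.76 and CSF1R 0.24, 0.39 and 0.22. Erythroid and megakaryocyte genes summed to 6.64, 8.07 and 10.6. HBA1 read 5.65, 4.5 and 5.01, and its near-identical copy HBA2, with 0, 0.94 and 4.37, can share reads with it. HBG2, HBB and ALAS2 had means of 0.643, 0.44 and 0.44. Stroma and endothelium genes summed to at most 0.88, from PDGFRB, COL1A1 and PDGFRA. Epithelial and kidney genes, listed because HEK293T cells packaged the virus, summed to 22.7, 21.6 and 24.3. KRT18, a simple epithelial keratin, read 9.32, 11.1 and 12.99, CGN, a tight junction protein, 9.18, 5.86 and 6.39, NEFM 2.37, 1.36 and 1.45, PAX8 1.26, 1.77 and 1.74 and KRT8, the partner of KRT18, 0.5, 1.5 and 1.6. None of these 5 lists had a gene in the top 10%. The defining markers COL1A2, EPCAM, CDH1, KRT19, CD3D and MPO were not analysed here.

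Few list members varied strongly among the scramble libraries, and class II genes were among those that did. Of 248 distinct list genes with a mean of at least 10, 18 (7.26%) had a CV of at least 25%, close to the 6.1% of all 6063 ranked genes at that level. They were IRF4, GPRC5D, CD55, CD74, CD48, ID3, NRAS, TENT5C, IL6ST, TNFRSF1A, CCR10, HMMR, SEC61G, SEC11C, HLA-DRA, HLA-DRB1, HLA-DPA1 and HLA-DMA. CD55, a complement inhibitor, read 7.67, 14.4 and 11.8. Replicate 1 was the highest library for IRF4, ID3, SEC61G, SEC11C, CD74 and the 4 HLA genes. It was the lowest for GPRC5D, CD55, CD48, NRAS, TENT5C, IL6ST, TNFRSF1A, CCR10 and HMMR.

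The ranking of list genes was largely kept in the empty vector libraries, as was that of all genes compared. Of 286 list genes above 0 in all 6 libraries, 9 differed in percentile by at least 20 points between the tables (3.15%), against 2.77% of all 8812 genes compared. Of 74 list genes in the top 10% of these genes in the scramble libraries, 67 were in the top 10% in the empty vector libraries. The same share over all genes compared was not computed. Ranks of all 8812 genes correlated at 0.961 between the tables, so this count is not particular to list genes. Another 42 ranked list genes have a 0 in at least 1 empty vector library, and 59 are not among the genes of that table. Normalisation, the genes listed and the construct all differ between the tables, and these cannot be told apart.

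Higher in the empty vector ranking were 6 genes, where 1.5% of all genes compared lay this far up: ERN1 by 35.0 points, DERL2 by 30.3, NCAM1 by 24.1, BIRC3 by 22.6, CIITA by 20.8 and ERP44 by 20.8. Lower were 3 genes, where the share of all genes was 1.27%, among them NOTCH1 by 20.6 points and KRT18 by 20.2. ERN1 read 6.30, 10.9 and 50.1 in empty vector replicates 3, 4 and 5, and its shift was 8.04 points without replicate 5. Its high value was thus that of 1 library. DERL2, which passes misfolded proteins to ERAD, read 49.95, 44.2 and 32.3 there, at percentile 82.1 against 51.8 in the scramble libraries, where it read 11.3, 13.3 and 10.9. NCAM1 read 11.1, 11.2 and 13.5, at percentile 48.9 against 24.8. Without empty vector replicate 5, 3 genes remained at 20 points or more, among them DERL2 and NCAM1.

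**Figure D5:**
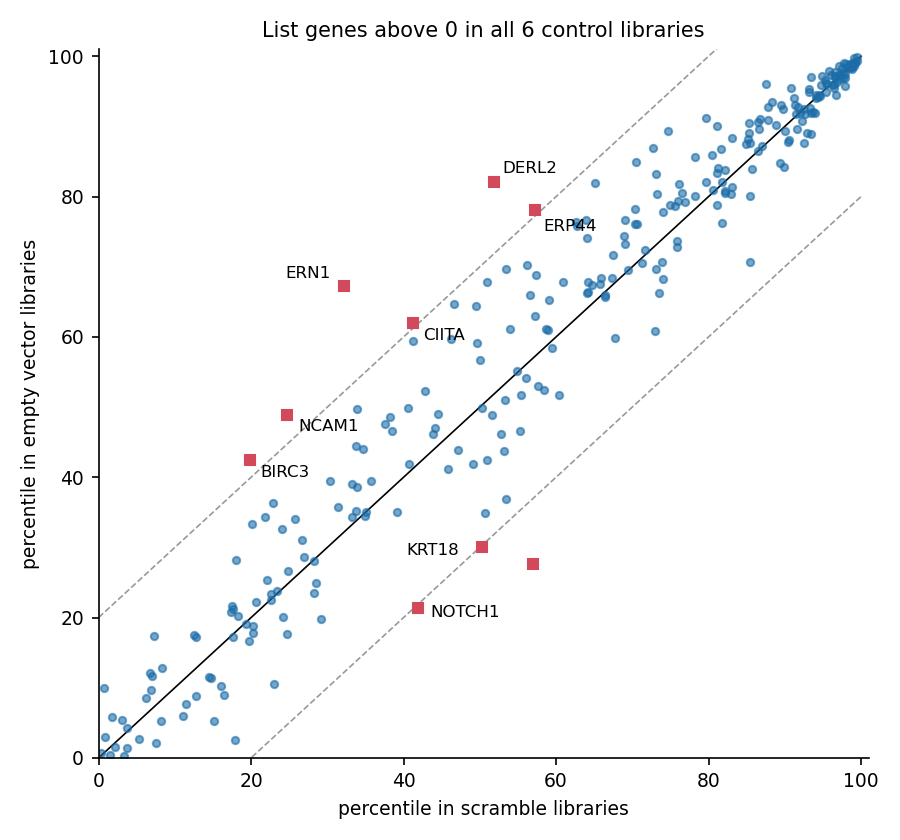
Percentile of 286 list genes in the empty vector libraries against the scramble libraries, ranked among 8812 genes above 0 in all 6. The solid line marks equal percentile, the dashed lines a difference of 20 points, and the 9 red squares lie beyond them, with the genes given above named.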

How the data were processed

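Values were read from 2 tables of gene abundances, recorded here as FPKM and deposited by the authors, whose headers name no unit. FPKM, RPKM and TPM could not be told apart from the values. RNA was aligned with TopHat to hg19, per the submitters' processing notes, and quantified with a tool not given in the sources used here. Scramble values are rounded to 2 decimals. For the scramble libraries, 24 rows whose gene symbol is written as a date were dropped.

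Means, SDs, CVs and percentiles within each table were computed in Python 3.11.15 with pandas 2.3.3 and numpy 2.4.6, and plots with matplotlib 3.10.9, after a check on simulated data. Genes above 0 in all 3 libraries of a table were ranked. Neighbouring genes were called different in level where their ranges did not overlap, and no test was run. Ranges set aside which library a value came from, so genes that overlap can still hold 1 order in every library. Correlations used log2(value + 1).

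Members and lists were chosen with earlier results of these data known. Named genes were the 5 markers, the 20 highest genes, in each list up to 8 highest and up to 4 lowest ranked members, all members of lists with 16 or fewer ranked, members with a mean of at least 10 and a CV of at least 25%, and members whose percentile differed by at least 20 points between tables. Other genes were named for their role after their values were seen, and some that the rule names are given only in counts or plots. Promoter sequences are RefSeq windows of GRCh38.p14, and no coordinate comes from the abundance tables. Alternatives were other sets of genes ranked, a geometric mean, median-of-ratios scaling and each library left out. Some list genes count toward the totals and are not reported here by name.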

Additional observations from a re-analysis of the deposited data

How the results depend on the processing

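List and table counts were recomputed under each alternative, 242 in all, and 234 stayed within 1.5 times the reported count. Ranking only genes with at least 1 in all 3 scramble libraries left 1 tumour suppressor (2 reported), 1 growth or cytokine receptor (2 reported) and 1 chemokine or adhesion receptor (3 reported) in the top 10%, because fewer genes are then ranked below them. Leaving out 1 scramble library in turn, 1 to 3 tumour suppressors and 1 to 2 MHC class II genes lay in the top 10%, with 3 tumour suppressors without replicate 1, 1 without replicate 3 and 2 class II genes without replicate 2 or without replicate 3. Epithelial genes at 10 or more numbered 0 to 1, with 1 (KRT18) without replicate 1. List genes shifted by 20 points between tables numbered 3 without empty vector replicate 5, against 9. The cause was not tested. Over all settings IRF4 stayed at percentiles 95.5 to 97.0, PRDM1 88.2 to 91.5, XBP1 98.7 to 99.0, SDC1 96.9 to 97.9 and TNFRSF17 90.8 to 93.4. The geometric mean has no bearing on counts at 10 or more, which read single values, and was not run for them. No paired analysis was possible because the labels give no pairing of scramble with empty vector libraries. No groups were tested against each other. Read depth is unknown, so low values carry no interval, and 0 in the empty vector table cannot be read as absence.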
